A study of Mus musculus with 6 samples.

Results

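The collagen chain genes encode the alpha chains of the collagens, the main structural proteins of the extracellular matrix. They were chosen by symbol, as genes named Col, digits, a, digits with at least 10 counts summed over the 6 libraries. Of 32245 gene symbols listed in the count files, 44 have such a name and 42 reached that sum, while Col6a5 (5 counts) and Col25a1 (2 counts) did not. Of the 42 members, 34 passed edgeR's filter on low counts and were tested.

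Each collagen molecule is a triple helix wound from 3 alpha chains, which can be alike or the products of different genes. Fibril-forming collagens assemble into the fibres that carry tension, type IV collagen forms the sheet-like network of basement membranes, type VI forms beaded filaments beside cells, and the fibril-associated collagens (FACITs) sit on the surface of fibrils. In the heart, types I and III make up most of the fibrillar matrix and come chiefly from fibroblasts, while basement membrane with type IV collagen surrounds cardiomyocytes and vessels.

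The samples were primary cardiomyocytes from hearts of neonatal wild-type mice, sequenced as polyadenylated RNA in bulk. There were 2 libraries from cells given BMP2 and dorsomorphin (BMP2+DM), 2 from cells given BMP2, and 2 from cells given PBS, the vehicle. BMP2 is a secreted ligand of the BMP receptors, which signal through SMAD transcription factors. Dorsomorphin is a kinase inhibitor used here against the BMP receptor, and it is also known to inhibit AMP-activated protein kinase. The labels state neither dose nor duration, and dorsomorphin without BMP2 was not analysed here. The groups show what differs with BMP2 and what differs when dorsomorphin is added to it. How much of a BMP2 change passes through SMAD signalling was not tested. Whether the replicates of a group were separate cultures or litters is not stated, so p-values measure only the spread between these samples, which may be technical.

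Each library held between 10106667 and 14366042 counts assigned to genes. The cardiomyocyte label held up against its markers: 10 of 10, among them Tnnt2, Myh6, Actc1 and Ttn, were present in every library, and their summed level was 28200 to 28490 CPM (gene counts scaled to the TMM-adjusted library size) in BMP2+DM, 25380 to 25630 in BMP2 and 32750 to 33300 in PBS. Other heart cells were present as well. Fibroblast markers other than collagens summed to 564 to 575 CPM in BMP2+DM, 569 to 590 in BMP2 and 739 to 741 in PBS. Smooth muscle and pericyte markers summed to 2236 to 2346 CPM in BMP2+DM, 2164 to 2227 in BMP2 and 3408 to 3465 in PBS. PBS 1 and BMP2 1 stood apart in 1 respect: ribosomal-repeat gene models held 1.31% and 2.1% of their gene counts, against 0.0702% to 0.0928% in the other 4 libraries. Of the 5 BMP-SMAD targets Id1, Id2, Id3, Smad6 and Smad7, 2 (Id2 and Smad6) were called higher in BMP2 than in PBS, and all 5 were called lower in BMP2+DM than in BMP2. All 5 were also called lower in BMP2+DM than in PBS, with log2 fold changes between −1.69 (Id1) and −0.89 (Id3), so BMP2+DM lay below the vehicle level.

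Collagen transcripts were a sizeable and slightly shrinking share of the RNA. Members together took 1.865% and 1.918% of gene counts with BMP2+DM, 1.95% and 2.064% with BMP2, and 2.136% and 2.328% with PBS. The means were 1.89% ± 0.0375, 2.01% ± 0.0806 and 2.23% ± 0.136 (SD, n = 2 each). The BMP2+DM libraries were lowest and the PBS libraries highest, with no overlap between groups. Counts were concentrated in Col1a1, Col1a2, Col3a1, Col4a1 and Col4a2, which held between 74.6% and 77% of collagen counts in every library. Within that total the balance moved. Col3a1 made up 20.2% and 20.9% of collagen counts in BMP2+DM, 13.1% and 13.4% in BMP2, and 8.05% in each PBS library. Col1a1 made up 17.5% and 17.4% in BMP2+DM, 24.4% and 23.8% in BMP2, and 23.5% and 23.3% in PBS. The fibril-forming class as a whole kept a narrower range, at 63.6% and 64.5% in BMP2+DM, 65.7% and 65.3% in BMP2, and 61.2% and 60.9% in PBS, and type IV took 26.8% and 26.1%, 25% and 25.2%, and 28.7% and 29.5% in the same groups.

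**Figure D1:**
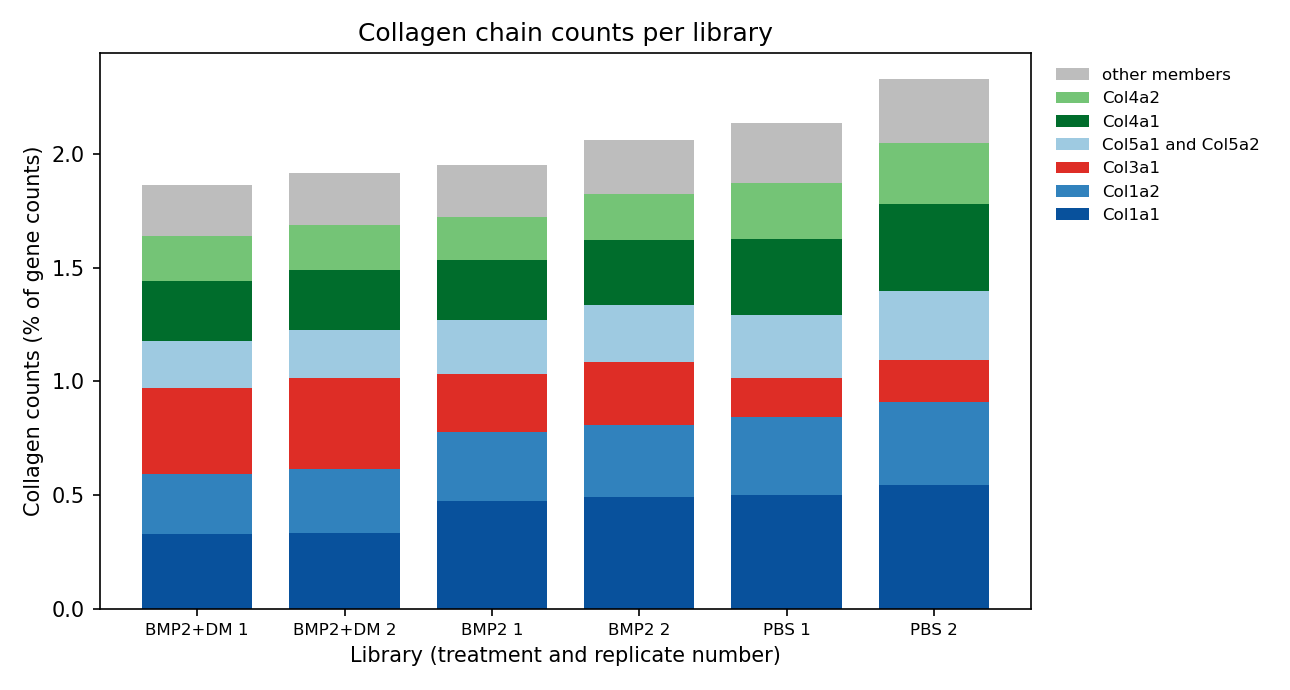
Collagen counts as a percentage of gene counts (vertical axis) in each of the 6 libraries (horizontal axis), stacked by gene. The red Col3a1 band is widest in the 2 BMP2+DM libraries and narrowest in the 2 PBS libraries, while the dark blue Col1a1 band is narrowest in BMP2+DM.

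Levels were also compared between genes per kilobase of exon, with all exons of a gene merged (GENCODE vM21). On that scale Col1a1 led in every group, with 493 CPM per kb in BMP2+DM, 736 in BMP2 and 810 in PBS. Col3a1 came second in BMP2+DM, at 388 CPM per kb, against 270 in BMP2 and 187 in PBS, where Col4a1 was second at 492. The order depends on the length used. With the longest transcript in place of merged exons, the BMP2+DM level per kb was 685 CPM for Col3a1 and 546 for Col1a1, so Col3a1 ranked first there, and Col1a2 in PBS was 672 in place of 289.

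More members moved down than up with BMP2, and more again with BMP2 and dorsomorphin together. In BMP2 against PBS, 2 of 34 tested members were higher and 16 lower (adjusted p under 0.05, edgeR's quasi-likelihood test with Benjamini-Hochberg adjustment over all genes). That is 52.9% of them, where 15.8% of all 14378 tested genes were called, 6.55% higher and 9.29% lower. Their median log2 fold change was −0.27, beside 0.004 over all tested genes. In BMP2+DM against BMP2, 6 were higher and 8 lower, 41.2% of those tested, where 8.73% of all genes were called (4.28% higher and 4.44% lower), and the median was −0.11 beside 0 over all genes. In BMP2+DM against PBS, 3 were higher and 19 lower, 64.7%, where 20.9% of all genes were called (9.38% higher and 11.5% lower), and the median was −0.52 beside 0.007. These comparisons share libraries in pairs, so their counts are not independent of each other. Genes with more counts are called more readily, and the shares were not matched for level. In BMP2 against PBS the standard error was 0.04 for the abundant Col1a1 and 0.9 for the rare Col13a1.

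The counts rest on few libraries. The 16 lower calls in BMP2 against PBS came to 10 without PBS 1 and BMP2 1 together. The 6 higher calls in BMP2+DM against BMP2 came to 3 without BMP2 1, 2 without BMP2 2, 3 without BMP2+DM 1 and 2 without BMP2+DM 2, and to 1 without PBS 1 and BMP2 1 together. Both libraries of one group lay outside the other group's range for 27 of 34 tested members in BMP2 against PBS, where this held for 55.9% of all tested genes. The same was true of 29 members in BMP2+DM against BMP2 (50.3% of all tested genes) and of 27 in BMP2+DM against PBS (58.5%). Calls of at least 2-fold were 4, 3 and 6 in these comparisons, where 3.03%, 1.52% and 4.15% of all genes met that rule. The counts of calls include Col2a1 and Col6a6. These passed the filter on low counts only through the group where they are high, PBS for Col2a1 and BMP2+DM for Col6a6.

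**Figure D2:**
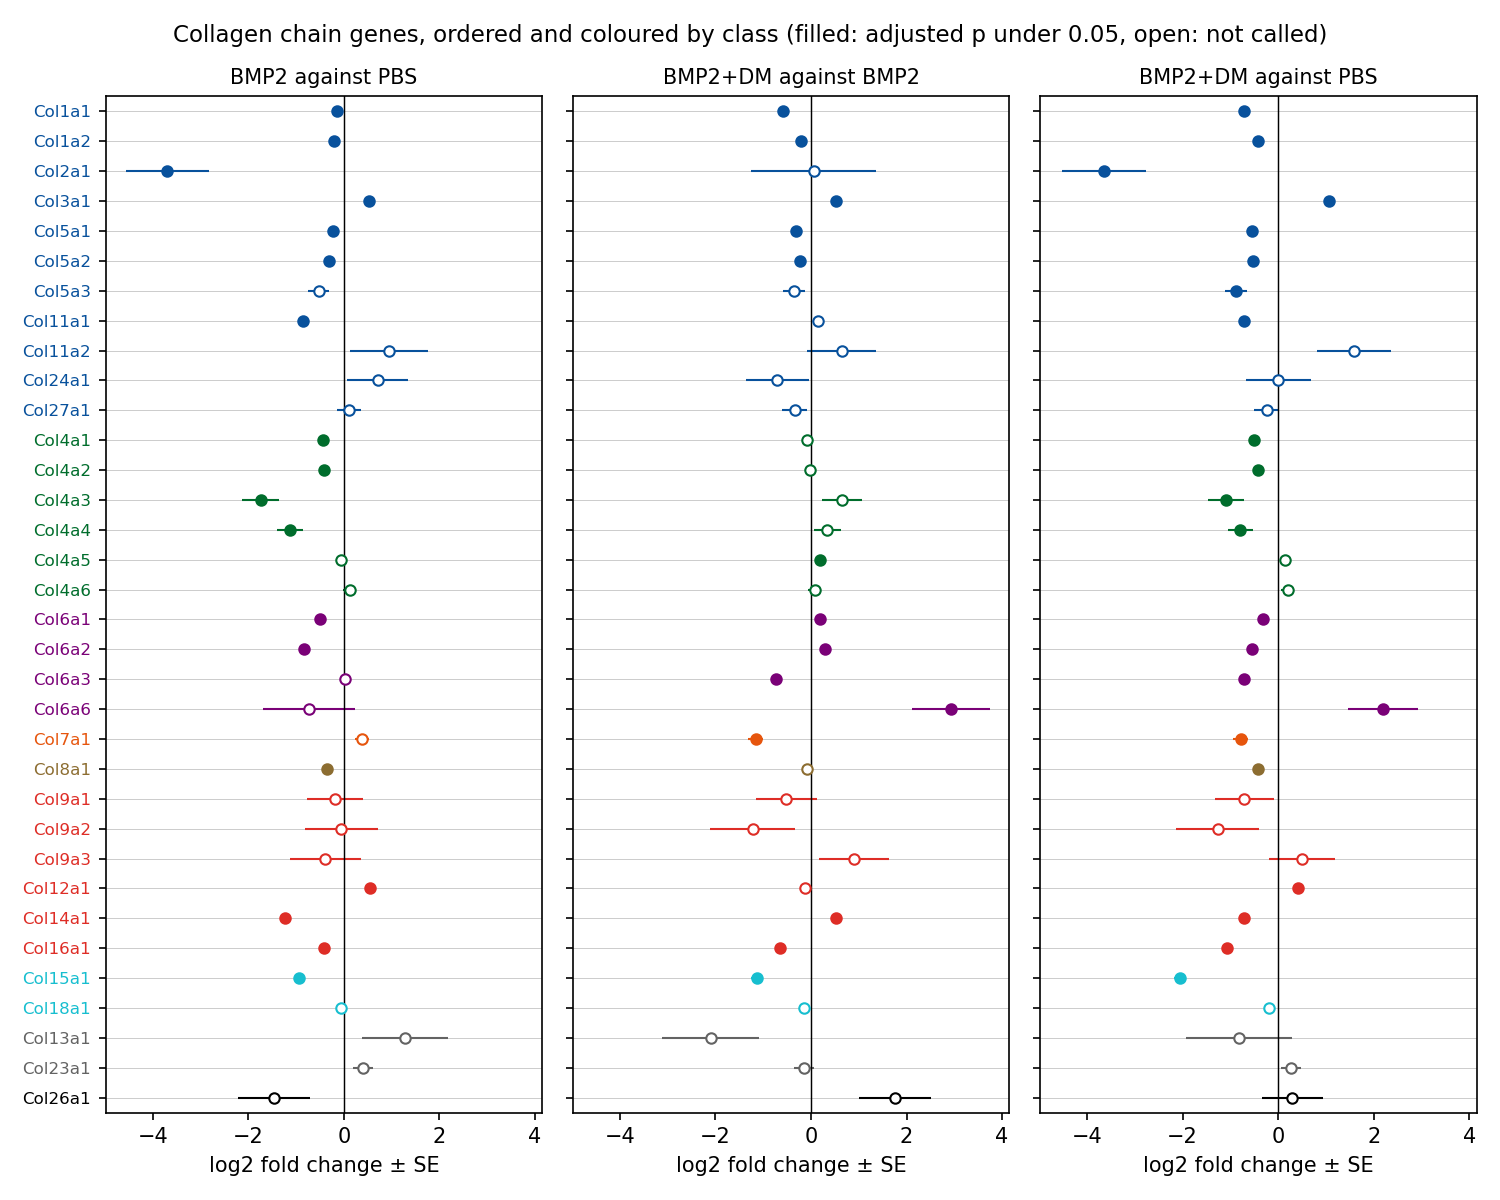
Log2 fold change with its standard error (horizontal axis) of the 34 tested members (vertical axis) in each comparison, grouped and coloured by collagen class, on 1 scale for all panels. Filled points have an adjusted p under 0.05. Col3a1 lies to the right in all 3 panels, and most other filled fibril-forming genes lie to the left.

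Among the 11 fibril-forming genes, Col3a1, the chain of type III collagen, went up while the genes of types I and V went down. In BMP2 against PBS 1 was called higher and 6 lower, in BMP2+DM against BMP2 1 and 4, and in BMP2+DM against PBS 1 and 7. Col3a1 (chromosome 1, 45311538 to 45349706, plus strand) stood at 3690 and 3935 CPM in BMP2+DM, 2582 and 2728 in BMP2, and 1764 and 1899 in PBS. Each group was clear of the next, with BMP2+DM highest. The log2 fold change was 0.54 ± 0.05 for BMP2 against PBS (edgeR adjusted p = 6.09e-07), 0.52 ± 0.05 for BMP2+DM against BMP2 (edgeR adjusted p = 2.15e-06) and 1.06 ± 0.05 for BMP2+DM against PBS (edgeR adjusted p = 7.15e-11). Dorsomorphin thus came with a further rise of Col3a1 and not with a return towards PBS.

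Col1a1, the major chain of type I collagen (chromosome 11, 94936224 to 94953042, plus strand), stood at 3203 and 3272 CPM in BMP2+DM, 4808 and 4856 in BMP2, and 5147 and 5490 in PBS. The large step lay between BMP2+DM and BMP2, at −0.58 ± 0.04 (edgeR adjusted p = 3.94e-08). The step between BMP2 and PBS was −0.14 ± 0.04 (edgeR adjusted p = 0.0246), and it missed the threshold without PBS 2 (−0.09), BMP2 1 (−0.13) or BMP2 2 (−0.15). Col1a2, the partner chain (chromosome 6, 4504814 to 4541544, plus strand), stood at 2625 and 2766 CPM in BMP2+DM, 3056 and 3146 in BMP2, and 3481 and 3711 in PBS. It fell in even steps, by 0.21 ± 0.05 in BMP2 against PBS and by 0.20 ± 0.05 in BMP2+DM against BMP2 on the log2 scale. The call against PBS was lost without PBS 2 (−0.17), and the call against BMP2 was lost without BMP2 2 (−0.18) or BMP2+DM 1 (−0.17). The count ratio of the pair within a library, Col1a1 over Col1a2, was 1.22 and 1.18 in BMP2+DM, 1.57 and 1.54 in BMP2, and 1.48 in each PBS library. The ratio of Col3a1 to Col1a1 was 1.15 and 1.2 in BMP2+DM, 0.537 and 0.562 in BMP2, and 0.343 and 0.346 in PBS, so type III counts exceeded Col1a1 counts only in the BMP2+DM libraries.

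The start regions of Col3a1 and Col1a2 are shown because these 2 abundant fibrillar genes moved in opposite directions. Each sequence is the gene's own strand, 5′ to 3′, from 250 bases before the annotated start to 50 after it (RefSeq, GRCm38.p6): chr1:45311288-45311587, plus strand, for Col3a1 and chr6:4505368-4505667, plus strand, for Col1a2. Capitals mark matches on either strand to 5 short motifs. They are the CCAAT box, which reads ATTGG on the opposite strand, the GC box GGGCGG, which there reads CCGCCC, and the GC palindrome GGCGCC, which reads alike on both. The others are the TATA box TATAAA, opposite TTTATA, and the SMAD-binding palindrome GTCTAGAC. The GC box and the GC palindrome can share letters where they adjoin.
Col3a1: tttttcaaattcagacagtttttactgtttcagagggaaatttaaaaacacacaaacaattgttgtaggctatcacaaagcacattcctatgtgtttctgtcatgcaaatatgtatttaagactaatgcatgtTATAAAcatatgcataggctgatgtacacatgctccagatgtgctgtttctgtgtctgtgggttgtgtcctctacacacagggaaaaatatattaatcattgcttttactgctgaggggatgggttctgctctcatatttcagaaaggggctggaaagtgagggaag
Col1a2: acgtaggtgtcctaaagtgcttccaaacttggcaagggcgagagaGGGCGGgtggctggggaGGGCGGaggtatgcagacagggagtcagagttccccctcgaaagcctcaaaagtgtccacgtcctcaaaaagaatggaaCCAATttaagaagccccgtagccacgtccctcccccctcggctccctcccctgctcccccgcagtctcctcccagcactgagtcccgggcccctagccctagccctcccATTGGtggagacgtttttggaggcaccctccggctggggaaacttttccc
The Col3a1 window held 1 TATA box and none of the others. That match began at base 134 of the window, and the annotated start follows base 250. The Col1a2 window held 2 CCAAT boxes and 2 GC boxes, with 1 CCAAT box at the annotated start itself. This RefSeq start lies downstream of the GENCODE start of Col1a2 (4504814), so a window elsewhere could hold other motifs. Whether any match lies where it could act was not tested, so the counts do not contrast the 2 genes. Over the 29 windows of the 26 tested members with an entry, 10 held a CCAAT box (34.5%, against 37.4% of all 32851 windows), 19 held a GC box (65.5%, against 35.7%), 5 held the GC palindrome (17.2%, against 11.9%), 3 held a TATA box (10.3%, against 13.6%) and 0 held the SMAD-binding palindrome (0.213% of all windows). The SMAD-binding palindrome is so rare over all windows that 0 in 29 says nothing about SMAD binding at these genes. A match is only a run of letters, and the motifs and the windows printed were chosen with earlier results known.

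The type V chains, which join type I fibrils and limit their width, followed Col1a2. Col5a1 stood at 804 and 844 CPM in BMP2+DM, 1005 and 1048 in BMP2, and 1149 and 1248 in PBS, with log2 fold changes of −0.22 ± 0.06 for BMP2 against PBS and −0.32 ± 0.06 for BMP2+DM against BMP2. Its call against PBS was lost without PBS 2 (−0.16) or BMP2 1 (−0.19). Col5a2, whose 3′ end faces that of Col3a1 across 24614 bases of chromosome 1, stood at 1212 and 1218 CPM in BMP2+DM, 1391 and 1441 in BMP2, and 1702 and 1825 in PBS. All 3 groups were separate, in the reverse of the Col3a1 order. Its fold change in BMP2+DM against BMP2 was −0.22 ± 0.05 and was not called without BMP2 2 (−0.20) or BMP2+DM 2 (−0.22). Col5a3, a minor type V chain, stood at 5.9 and 7.28 CPM in BMP2+DM, 8.9 and 7.92 in BMP2, and 13.3 and 11 in PBS, and was called only in BMP2+DM against PBS (−0.88 ± 0.23). That call was lost without PBS 1 (−0.73) or BMP2+DM 1 (−0.74).

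Among genes of the cartilage fibrils, Col11a1 and Col2a1 were lower in both BMP2 groups, while Col11a2 had no call. Col11a1, a type XI chain that nucleates fibrils, stood at 98.8 and 93 CPM in BMP2+DM, 88.1 and 84.5 in BMP2, and 140 and 173 in PBS, so the PBS libraries lay above all others. It fell by 0.86 ± 0.09 on the log2 scale in BMP2 against PBS (edgeR adjusted p = 2.9e-06) and did not pass in BMP2+DM against BMP2 (0.15 ± 0.09). Col2a1, the chain of cartilage type II collagen, had 1 and 2 counts in BMP2+DM, 2 and 1 in BMP2, and 31 and 19 in PBS. That is 14-fold lower in BMP2 than in PBS (95% interval 4.54 to 70.4) and 13.5-fold lower in BMP2+DM than in PBS (4.36 to 67.6), both intervals covering counting error only. Col2a1 passed the filter on low counts only through PBS (2.21 and 1.65 CPM, at most 0.194 in any other library). Its fold changes and calls thus come from a gene let in by the group where it is high, and they are description only. The edgeR call in BMP2 against PBS was lost without PBS 1, BMP2 1 or BMP2 2 (log2 fold changes −3.46, −4.20 and −3.34), and that in BMP2+DM against PBS without PBS 1 or BMP2+DM 1 (−3.41 and −3.25). Col11a2, another type XI chain, had 8 and 19 counts in BMP2+DM, 11 and 7 in BMP2, and 8 and 3 in PBS. Its log2 fold changes were 0.95 ± 0.82 for BMP2 against PBS and 1.59 ± 0.78 for BMP2+DM against PBS, opposite in sign to those of Col11a1. Chondrocyte markers summed to 23.7 and 24.2 CPM in BMP2+DM, 48.3 and 46.5 in BMP2, and 66.3 and 74.5 in PBS, with 3 of 8 passing the filter, Matn1, Cnmd and Snorc at 0 counts and Comp at 4 in all libraries together. Of the 3 tested, 1 was called higher and 2 lower in BMP2 against PBS, 0 and 3 in BMP2+DM against BMP2, and 0 and 2 in BMP2+DM against PBS. The shares called over all tested genes were 15.8%, 8.73% and 20.9% in the same order. The part of the chondrocyte markers in the Col2a1 and Col11a1 results was not tested.

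Fibroblast markers moved less uniformly than the type I and V genes. Of 8 tested, 1 was higher and 2 lower in BMP2 against PBS, 2 and 2 in BMP2+DM against BMP2, and 2 and 5 in BMP2+DM against PBS. Over all tested genes, 15.8%, 8.73% and 20.9% were called in these comparisons. Thy1 averaged 95.3 ± 2.42 CPM in BMP2+DM, 79.6 ± 0.748 in BMP2 and 175 ± 0.295 in PBS (SD, n = 2 each). Pdgfra fell in both steps, averaging 113 CPM in BMP2+DM, 146 in BMP2 and 213 in PBS. Tcf21 averaged 71.4, 97.3 and 102 CPM in the same groups. Dpt and Fbln1 went the other way, at 74.8 and 57.1 CPM in BMP2+DM, 60.3 and 32.9 in BMP2, and 40.9 and 29.2 in PBS. The part of the fibroblast markers in the collagen results was not tested, and in bulk RNA fewer cells of a type and less RNA per cell cannot be told apart.

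**Figure D3:**
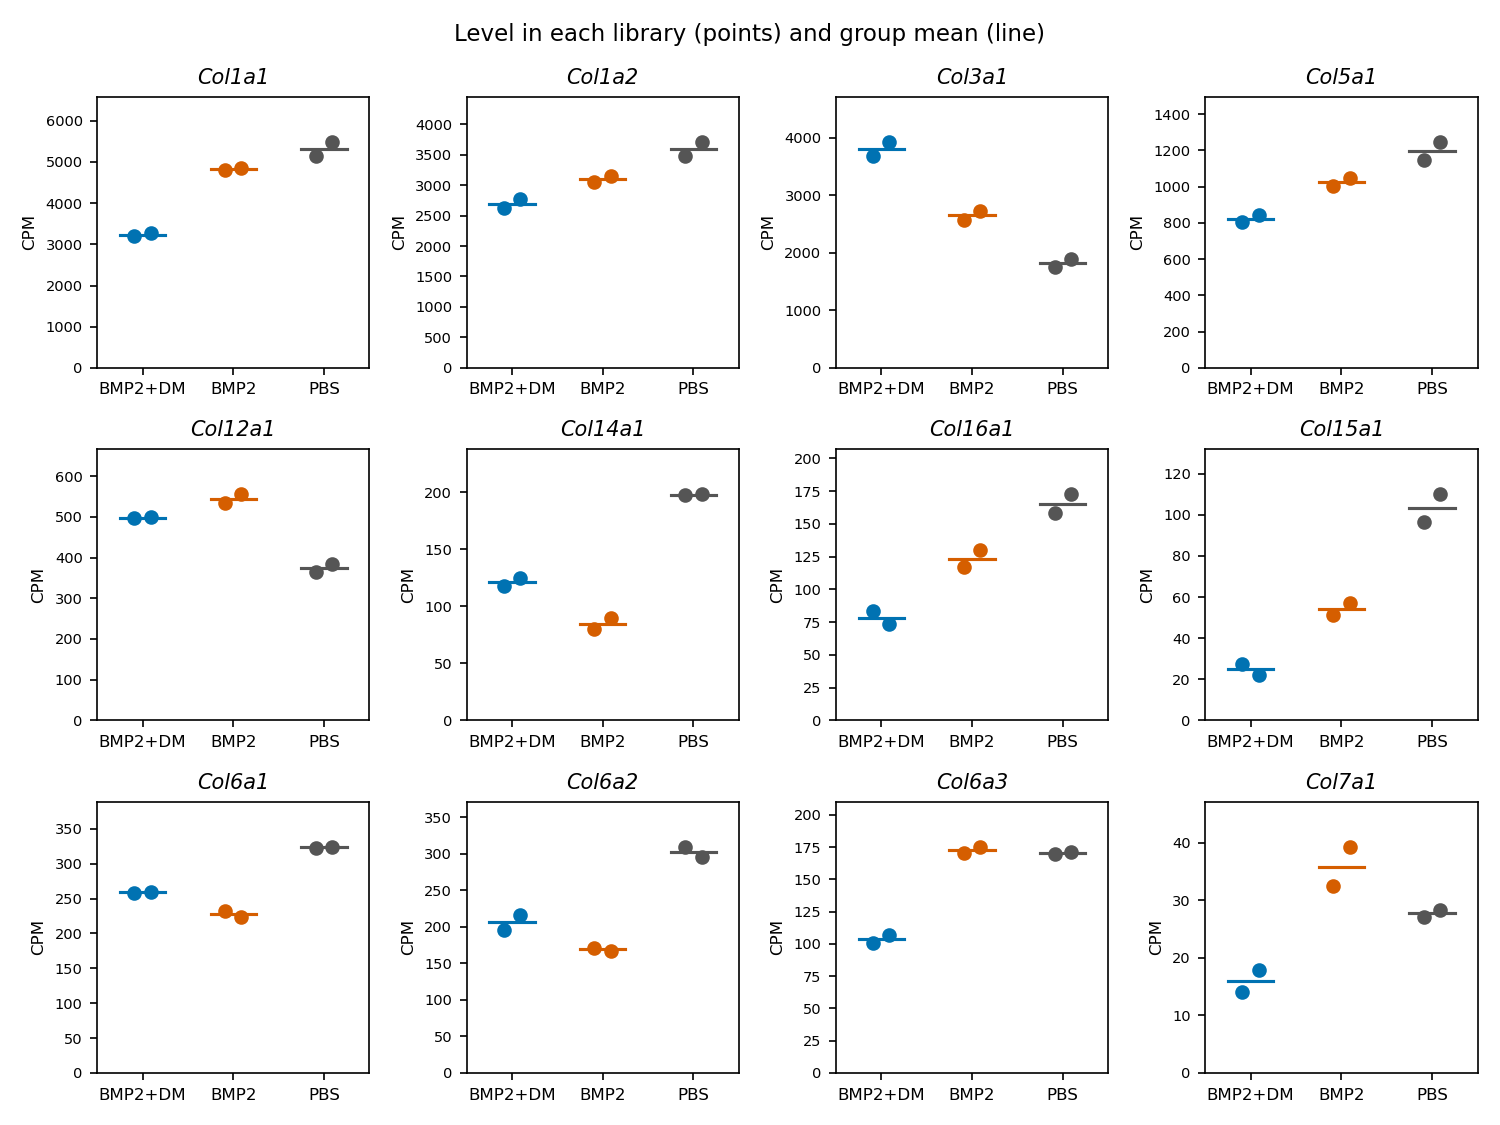
Level in CPM (vertical axis, from 0) of 12 members in each library (points), with the mean of each group (line), for BMP2+DM, BMP2 and PBS. Col3a1 is highest in BMP2+DM, Col1a1, Col1a2, Col5a1, Col16a1 and Col15a1 are lowest there, and Col14a1, Col6a1 and Col6a2 are lowest in BMP2.

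The 6 type IV genes lie in 3 pairs that are read outward from neighbouring starts, and the pairs behaved differently from each other. Genes of 2 of the pairs were lower in both BMP2 groups, and the third pair was not. In BMP2 against PBS 0 were called higher and 4 lower, in BMP2+DM against BMP2 1 and 0, and in BMP2+DM against PBS 0 and 4. Col4a1 and Col4a2 encode the chains of the common basement membrane network and start 21 bases apart on chromosome 8. Col4a1 stood at 2586 and 2569 CPM in BMP2+DM, 2654 and 2816 in BMP2, and 3462 and 3884 in PBS. Col4a2 stood at 1944 and 1956 in BMP2+DM, 1932 and 1995 in BMP2, and 2485 and 2715 in PBS. For both, the PBS libraries lay above the other 4. The log2 fold changes for BMP2 against PBS were −0.43 ± 0.05 for Col4a1 (edgeR adjusted p = 1.23e-05) and −0.41 ± 0.05 for Col4a2 (edgeR adjusted p = 1.54e-05). BMP2+DM against BMP2 gave −0.09 ± 0.05 and −0.01 ± 0.05, neither called. The count ratio of Col4a1 to Col4a2 was 1.33 and 1.31 in BMP2+DM, 1.37 and 1.41 in BMP2, and 1.39 and 1.43 in PBS. The exons of the pair share 22 bases, under 1% of either gene, and the strand setting of the counting is not given.

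Col4a3 and Col4a4, chains of the specialised network best known from the kidney glomerulus, start 72 bases apart on chromosome 1 and were rare here. Col4a3 stood at 1.93 and 3.5 CPM in BMP2+DM, 1.91 and 1.53 in BMP2, and 5.57 and 6 in PBS. Col4a4 stood at 4.35 and 5.92 in BMP2+DM, 4.27 and 3.82 in BMP2, and 8.5 and 9.31 in PBS. The PBS libraries were again highest for both genes. BMP2 against PBS gave −1.74 ± 0.39 for Col4a3 (edgeR adjusted p = 0.00462) and −1.13 ± 0.27 for Col4a4 (edgeR adjusted p = 0.00714). The first was not called without PBS 2 (−1.69), the second without PBS 2 (−1.07) or BMP2 2 (−1.06). The calls in BMP2+DM against PBS, −1.09 ± 0.37 and −0.79 ± 0.27, were each lost with DESeq2 and without PBS 1, PBS 2 or BMP2+DM 1 (−0.73 for Col4a3 and −0.59 for Col4a4 without BMP2+DM 1). Of the merged exon length of Col4a3, 5.65% overlaps C430014B12Rik on the other strand.

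Col4a5 and Col4a6, on the X chromosome with starts 1309 bases apart, did not share the fall. Col4a5 stood at 346 and 351 CPM in BMP2+DM, 302.5 and 306 in BMP2, and 303 and 329 in PBS. The BMP2+DM libraries were highest, and the BMP2 and PBS ranges overlapped. BMP2+DM against BMP2 gave 0.20 ± 0.05 (edgeR adjusted p = 0.025), a call lost without any 1 of the 4 BMP2 and BMP2+DM libraries (0.19 to 0.21). BMP2+DM against PBS gave 0.14 ± 0.05, not called with all libraries and called without PBS 2 (0.20). Col4a6 stood at 26.8 and 29.5 CPM in BMP2+DM, 26.6 and 26.8 in BMP2, and 25.9 and 23.1 in PBS and was called in no comparison.

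The start regions of Col4a1 and Col4a4 are shown because each window also takes in the annotated start of the partner gene. Both are from RefSeq, GRCm38.p6, minus strand, 5′ to 3′, with capitals as above: chr8:11312777-11313076 for Col4a1, which shares 78 bases with the window of Col4a2 on the other strand, and chr1:82586800-82587099 for Col4a4, which contains the annotated start of Col4a3 on the plus strand.
Col4a1: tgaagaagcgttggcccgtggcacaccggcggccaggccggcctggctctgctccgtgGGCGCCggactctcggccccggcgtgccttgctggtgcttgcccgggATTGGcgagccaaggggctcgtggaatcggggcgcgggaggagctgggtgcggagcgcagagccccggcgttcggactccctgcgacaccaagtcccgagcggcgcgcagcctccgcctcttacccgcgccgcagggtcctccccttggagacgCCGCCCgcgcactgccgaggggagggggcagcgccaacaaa
Col4a4: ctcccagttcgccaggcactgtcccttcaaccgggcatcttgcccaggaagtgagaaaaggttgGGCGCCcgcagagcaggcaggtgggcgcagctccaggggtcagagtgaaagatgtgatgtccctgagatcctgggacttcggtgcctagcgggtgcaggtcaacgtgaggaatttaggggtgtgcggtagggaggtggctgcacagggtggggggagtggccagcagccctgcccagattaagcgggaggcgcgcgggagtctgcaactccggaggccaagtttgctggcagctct
The Col4a1 window held 1 CCAAT box, 1 GC box and 1 GC palindrome, and the Col4a4 window held 1 GC palindrome. The windows of Col4a5 and Col4a6 share 0 bases.

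**Figure D4:**
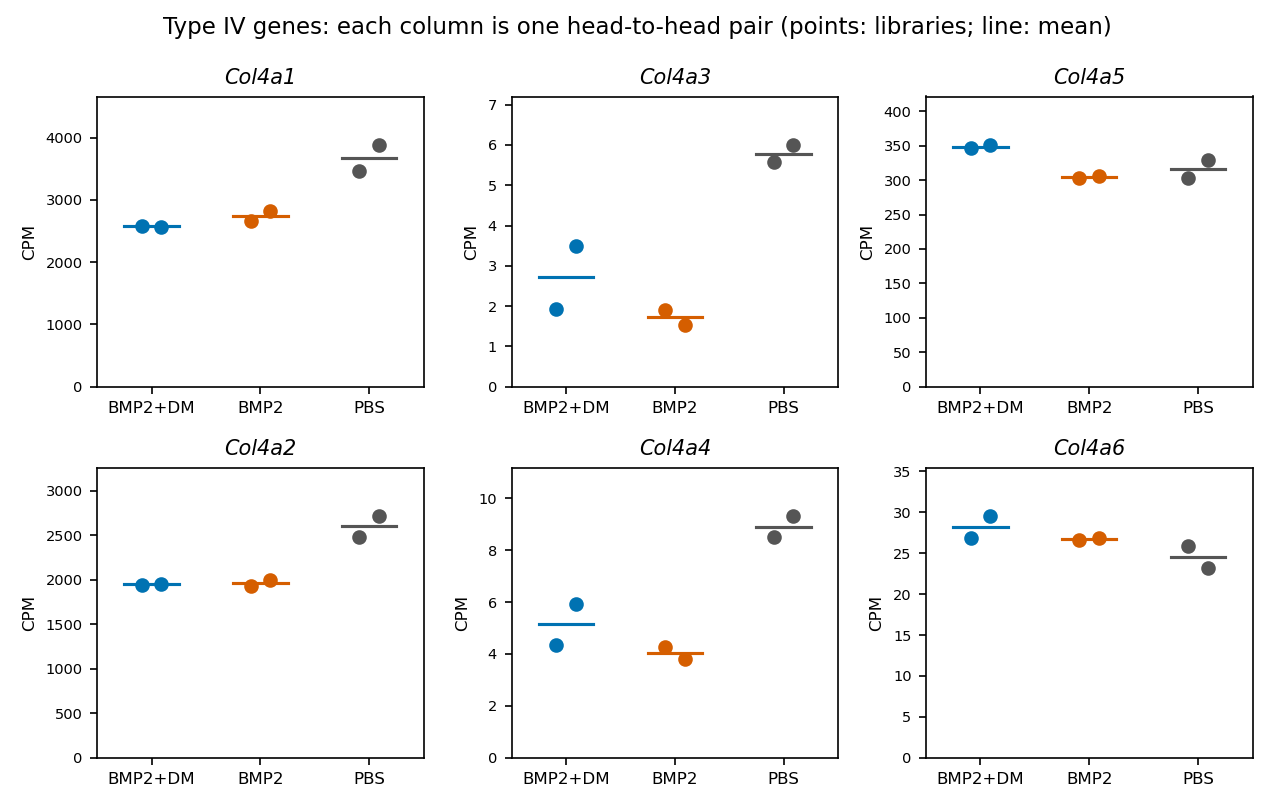
Level in CPM (vertical axis, from 0) of the 6 type IV genes in each library (points) with group means (lines), 1 pair of neighbouring genes per column. PBS is highest for Col4a1, Col4a2, Col4a3 and Col4a4, and BMP2+DM is highest for Col4a5.

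The proteins that share the basement membrane with type IV collagen were mixed. Of 15 tested, 2 were higher and 7 lower in BMP2 against PBS, 4 and 1 in BMP2+DM against BMP2, and 3 and 5 in BMP2+DM against PBS, with medians of −0.22, 0.06 and −0.17. Over all tested genes, 15.8%, 8.73% and 20.9% were called in the same order of comparisons. Nid1 and Nid2 encode the nidogens, which link laminin to type IV collagen, and they parted. Nid1 averaged 436 ± 13.2 CPM in BMP2+DM, 473 ± 2.27 in BMP2 and 720 ± 22 in PBS, and fell by 0.61 ± 0.05 on the log2 scale in BMP2 against PBS. Nid2 averaged 242 ± 3.07 CPM in BMP2+DM, 149 ± 6.31 in BMP2 and 161 ± 4.46 in PBS, and rose by 0.70 ± 0.06 in BMP2+DM against BMP2 (SD, n = 2 each). The laminin chain Lamb1 and the proteoglycan Hspg2 (perlecan) fell with BMP2, by 0.35 ± 0.05 and 0.31 ± 0.05. Endothelial markers, from cells that also make type IV collagen, summed to 192 to 208 CPM in BMP2+DM, 277 to 292 in BMP2 and 312 to 319 in PBS. Their part in the type IV results was not tested.

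Type VI collagen is assembled from the chains of Col6a1, Col6a2 and a larger partner chain such as that of Col6a3. The 3 genes did not keep step. In BMP2 against PBS 0 of 4 tested genes were called higher and 2 lower, in BMP2+DM against BMP2 3 and 1, and in BMP2+DM against PBS 1 and 3. Col6a1 stood at 257.8 and 259.6 CPM in BMP2+DM, 232 and 224 in BMP2, and 323 and 324 in PBS. Col6a2, 85161 bases away on chromosome 10, stood at 195 and 217 CPM in BMP2+DM, 172 and 166 in BMP2, and 310 and 295 in PBS. For both, BMP2 was lowest, BMP2+DM between and PBS highest, with no overlap.

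Col6a1 fell by 0.51 ± 0.05 on the log2 scale in BMP2 against PBS (edgeR adjusted p = 1.88e-06), and Col6a2 fell by 0.84 ± 0.06 (edgeR adjusted p = 3.05e-08). In BMP2+DM against BMP2, Col6a2 rose by 0.29 ± 0.06 (edgeR adjusted p = 0.0075), a call lost without BMP2 2 (0.26) or BMP2+DM 2 (0.21). Col6a1 was at 0.18 ± 0.05 there (edgeR adjusted p = 0.0363), and that call was lost without any 1 of the 6 libraries (0.16 to 0.21), with DESeq2 (0.18) and with the ribosomal-repeat models left out (0.18). Col6a3 stood at 101 and 107 CPM in BMP2+DM, 170.5 and 175 in BMP2, and 170 and 172 in PBS. It was low in BMP2+DM alone, with BMP2 and PBS ranges overlapping, and fell by 0.73 ± 0.07 on the log2 scale in BMP2+DM against BMP2 (edgeR adjusted p = 1.64e-06). The count ratio of Col6a3 to Col6a1 was 0.391 and 0.413 in BMP2+DM, 0.736 and 0.784 in BMP2, and 0.527 and 0.529 in PBS. Col6a6, an alternative to that larger chain, had 16 and 22 counts in BMP2+DM, 2 and 3 in BMP2, and 5 and 5 in PBS. The count ratio was 7.91 for BMP2+DM over BMP2 (95% interval 3.11 to 25.8, counting error only) and 4.7 over PBS (2.3 to 10.6). Col6a6 passed the filter on low counts only through BMP2+DM (1.55 and 2.14 CPM, at most 0.435 in any other library). Its ratios and calls thus come from a gene let in by the group where it is high, and they are description only. Both edgeR calls were lost with DESeq2 and without any 1 of the 6 libraries (log2 fold changes 2.64 to 3.27 and 1.95 to 2.40). The call against PBS was also lost with no low-count filter (edgeR adjusted p = 0.073) and with the replicate block (edgeR adjusted p = 0.0555).

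The fibril-associated genes took different paths. Of 6 tested, 1 was called higher and 2 lower in BMP2 against PBS, 1 and 1 in BMP2+DM against BMP2, and 1 and 2 in BMP2+DM against PBS. Col12a1, whose product bridges type I fibrils in tissues under load (chromosome 9, 79598991 to 79718831, minus strand), stood at 496 and 499 CPM in BMP2+DM, 534 and 556 in BMP2, and 365 and 385 in PBS. Both BMP2 groups lay above PBS, by 0.54 ± 0.05 for BMP2 (edgeR adjusted p = 2.32e-07) and 0.41 ± 0.05 for BMP2+DM (edgeR adjusted p = 4.43e-06). Col14a1, which encodes a related chain that binds fibrils (chromosome 15, 55307750 to 55520803, plus strand), stood at 118 and 125 CPM in BMP2+DM, 79.9 and 89.8 in BMP2, and 198 in each PBS library. It was lowest in BMP2, at −1.22 ± 0.08 against PBS (edgeR adjusted p = 3.08e-09), and higher again in BMP2+DM, at 0.52 ± 0.08 against BMP2 (edgeR adjusted p = 0.000279). The ratio of Col12a1 to Col14a1 counts was therefore 4.21 and 4 in BMP2+DM, 6.68 and 6.18 in BMP2, and 1.85 and 1.94 in PBS. Col16a1, a minor fibril-associated chain, stood at 83.4 and 73.7 CPM in BMP2+DM, 117 and 130 in BMP2, and 158 and 173 in PBS. It fell in both steps, by 0.42 ± 0.08 and 0.65 ± 0.09 on the log2 scale. Without PBS 1 and BMP2 1 together, the Col14a1 rise (0.43) and the first Col16a1 step (−0.41) were no longer called. Col9a1, Col9a2 and Col9a3, the type IX chains of cartilage, had between 3 and 24 counts in any library and were called in no comparison.

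In BMP2+DM against PBS, Col15a1 had the largest called fall among members averaging above 10 CPM. It encodes a basement-membrane-zone collagen of muscle and capillaries, 1 of the 2 multiplexins (chromosome 4, 47208161 to 47313167, plus strand). It stood at 27.7 and 21.9 CPM in BMP2+DM, 51.2 and 57.1 in BMP2, and 96.5 and 110 in PBS. The 3 groups were well separated, with log2 fold changes of −0.93 ± 0.11 for BMP2 against PBS (edgeR adjusted p = 1.18e-05), −1.13 ± 0.13 for BMP2+DM against BMP2 (edgeR adjusted p = 1.36e-05) and −2.06 ± 0.12 for BMP2+DM against PBS (edgeR adjusted p = 1.18e-09). Col18a1, the other multiplexin and the source of endostatin, stood at 81.3 and 91.7 CPM in BMP2+DM, 92.5 and 98.5 in BMP2, and 100.5 and 97.6 in PBS. It was called in no comparison (−0.05 ± 0.09, −0.14 ± 0.09 and −0.20 ± 0.09 in the same order). Endothelial markers moved beside Col15a1 in BMP2+DM: of 10 tested, 0 were higher and 4 lower against BMP2, and 0 and 6 against PBS. In BMP2 against PBS 1 was higher and 1 lower. Over all tested genes, 4.28% were called higher and 4.44% lower in BMP2+DM against BMP2. In BMP2+DM against PBS these shares were 9.38% and 11.5%, and in BMP2 against PBS 6.55% and 9.29%. The part of the endothelial markers in the Col15a1 result was not tested.

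Col7a1, the chain of the anchoring fibrils of skin, stood at 14.1 and 18 CPM in BMP2+DM, 32.4 and 39.3 in BMP2, and 27.1 and 28.3 in PBS. Levels were lowest in BMP2+DM, which fell by 1.16 ± 0.16 on the log2 scale against BMP2 (edgeR adjusted p = 0.000106) and by 0.79 ± 0.16 against PBS (edgeR adjusted p = 0.00144). BMP2 against PBS was not called (0.37 ± 0.15). Col8a1, a short-chain network collagen of vessels and heart, stood at 349 and 328 CPM in BMP2+DM, 349.5 and 368 in BMP2, and 448 and 464 in PBS. Both BMP2 groups lay below PBS, with log2 fold changes of −0.35 ± 0.05 for BMP2 (edgeR adjusted p = 8.36e-05, and not called without PBS 1 and BMP2 1 together, −0.33) and −0.43 ± 0.05 for BMP2+DM, and the difference between them did not pass the threshold (−0.08 ± 0.05).

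The remaining tested genes were rare and called in no comparison. Col23a1, a transmembrane collagen, stood at 11.8 and 12 CPM in BMP2+DM, 13.6 and 12.8 in BMP2, and 8.21 and 11.8 in PBS. Col13a1, also transmembrane, had 1 and 6 counts in BMP2+DM, 16 in each BMP2 library, and 16 and 0 in PBS. Scaled for depth, the PBS libraries lay far apart, at 1.14 and 0 CPM, and both were below the BMP2 libraries (1.45 and 1.53). Col26a1 had 9 and 24 counts in BMP2+DM, 3 and 7 in BMP2, and 17 and 16 in PBS. The fibril-forming genes Col24a1 and Col27a1 had 67 and 460 counts in all. The 8 members under the filter were Col10a1 (27 counts in all), Col17a1 (26), Col19a1 (11), Col20a1 (24), Col22a1 (13), Col28a1 (27), Col6a4 (14) and Col8a2 (30), and they were not tested. Col17a1, a transmembrane collagen of epithelial attachment, was singled out after its values were seen. It had 1 and 0 counts in BMP2+DM, 0 and 1 in BMP2, and 15 and 9 in PBS, so both PBS libraries lay above all others. The ratio to PBS was 0.0515 for BMP2+DM (95% interval 0.00125 to 0.316) and 0.0494 for BMP2 (0.0012 to 0.303), covering counting error only.

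Read by calls across the comparisons, the members fell into a few patterns. Col3a1 was higher in all 3, and Col1a1, Col1a2, Col5a1, Col5a2, Col15a1 and Col16a1 (6 genes) were lower in all 3. Col14a1, Col6a1 and Col6a2 (3 genes) were lower with BMP2 and higher again in BMP2+DM than in BMP2, while remaining below PBS. Col11a1, Col2a1, Col4a1, Col4a2, Col4a3, Col4a4 and Col8a1 (7 genes) were lower in both BMP2 groups than in PBS with no call between those groups. Col6a3 and Col7a1 were lower in BMP2+DM than in either other group, with no call between BMP2 and PBS, and Col6a6 was higher in the same 2 comparisons. Col5a3 was lower only in BMP2+DM against PBS, and Col4a5 was higher only in BMP2+DM against BMP2. The other 11 tested members had no call. Col12a1 was higher in both BMP2 groups than in PBS. A missing call between BMP2+DM and BMP2 does not show equal levels. Col2a1 and Col6a6 entered these patterns by passing the filter only through the group where they are high.

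Genes that fold, cut and cross-link collagen were called lower more often than higher in both BMP2 groups against PBS. All tested genes leaned the same way, less strongly: 6.55% were called higher and 9.29% lower in BMP2 against PBS, and 9.38% and 11.5% in BMP2+DM against PBS. In BMP2+DM against BMP2 the shares were 4.28% and 4.44%. These shares stand beside the counts of each list that follows. Of 17 tested genes for folding and hydroxylation of the chains, 0 were higher and 8 lower in BMP2 against PBS, 0 and 2 in BMP2+DM against BMP2, and 0 and 12 in BMP2+DM against PBS, with medians of −0.20, −0.15 and −0.32. Fkbp10, an endoplasmic reticulum isomerase needed for cross-linking of type I collagen, averaged 201 ± 9.02 CPM in BMP2+DM, 237 ± 3.14 in BMP2 and 302 ± 0.107 in PBS (SD, n = 2 each). It fell by 0.35 ± 0.06 on the log2 scale in BMP2 against PBS and by 0.23 ± 0.06 in BMP2+DM against BMP2. The lysyl hydroxylase Plod1 and the prolyl 3-hydroxylase P3h2, which acts on type IV collagen, fell in BMP2 against PBS by 0.49 ± 0.08 and 1.17 ± 0.19. Of 7 tested genes for cleavage of procollagen ends, 0 were higher and 3 lower, 0 and 1, and 0 and 5, with medians of −0.43, −0.07 and −0.33. Adamts2, which removes amino-terminal propeptides, averaged 119 ± 1.82 CPM in BMP2+DM, 108 ± 4.58 in BMP2 and 150 ± 4.61 in PBS. Tll1, a protease of the BMP1 family that removes carboxy-terminal propeptides, averaged 3.64 ± 1.17 CPM in BMP2+DM, 3.85 ± 0.591 in BMP2 and 14.8 ± 1.4 in PBS, at −1.94 ± 0.26 for BMP2 against PBS.

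Of 5 lysyl oxidase genes, which cross-link collagen and elastin outside the cell, 0 were higher and 4 lower in BMP2 against PBS, 2 and 1 in BMP2+DM against BMP2, and 0 and 4 in BMP2+DM against PBS, with medians of −0.56, −0.08 and −0.37. Loxl2 averaged 486 ± 5.18 CPM in BMP2+DM, 614 ± 12.4 in BMP2 and 905 ± 9.44 in PBS, and fell in both steps, by 0.56 ± 0.05 and 0.34 ± 0.05 on the log2 scale. Loxl1 averaged 306 ± 19.6 CPM in BMP2+DM, 263 ± 7.35 in BMP2 and 394 ± 21 in PBS, lowest in BMP2 as Col14a1 was. Lox averaged 394 ± 15.1 CPM in BMP2+DM, 342 ± 14.1 in BMP2 and 447 ± 33.8 in PBS, and rose by 0.20 ± 0.06 in BMP2+DM against BMP2. Of 7 small proteoglycans that bind fibrils, 0 were higher and 6 lower in BMP2 against PBS, 3 and 1 in BMP2+DM against BMP2, and 2 and 2 in BMP2+DM against PBS, with medians of −0.57, 0.39 and −0.08. Bgn (biglycan) fell in both steps, averaging 1442 ± 57.5 CPM in BMP2+DM, 1933 ± 33 in BMP2 and 2318 ± 73.1 in PBS. Dcn (decorin) averaged 309 ± 14.9 CPM in BMP2+DM, 236 ± 1.8 in BMP2 and 274 ± 9.72 in PBS. Prelp, which anchors fibrils to basement membrane, averaged 109 ± 11.6 CPM in BMP2+DM, 41.5 ± 2.48 in BMP2 and 71.2 ± 1.47 in PBS, and its rise of 1.40 ± 0.10 in BMP2+DM against BMP2 was larger than that of any collagen member above 10 CPM.

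Of 7 tested collagen receptors, 0 were higher and 3 lower in BMP2 against PBS, 0 and 1 in BMP2+DM against BMP2, and 0 and 3 in BMP2+DM against PBS, with medians of −0.35, 0.10 and −0.39. Ddr1, a receptor tyrosine kinase for collagen, averaged 218 ± 21.2 CPM in BMP2+DM, 308 ± 12 in BMP2 and 347 ± 5.62 in PBS, and fell by 0.50 ± 0.06 on the log2 scale in BMP2+DM against BMP2. Mrc2, which takes up collagen for degradation, averaged 159 ± 3.29 CPM in BMP2+DM, 149 ± 3.68 in BMP2 and 208 ± 1.32 in PBS. Of 7 tested genes for collagen breakdown, 0 were higher and 2 lower in BMP2 against PBS, 2 and 0 in BMP2+DM against BMP2, and 1 and 2 in BMP2+DM against PBS, with medians of −0.27, 0.09 and −0.04. Mmp2, a gelatinase, averaged 356 ± 14.6 CPM in BMP2+DM, 333 ± 1.99 in BMP2 and 401 ± 6.95 in PBS. Mmp16, a membrane-type metalloproteinase, averaged 21.9 ± 3 CPM in BMP2+DM, 10.4 ± 0.431 in BMP2 and 21.2 ± 2.12 in PBS, at −1.02 ± 0.17 for BMP2 against PBS and 1.07 ± 0.18 for BMP2+DM against BMP2.

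**Figure D5:**
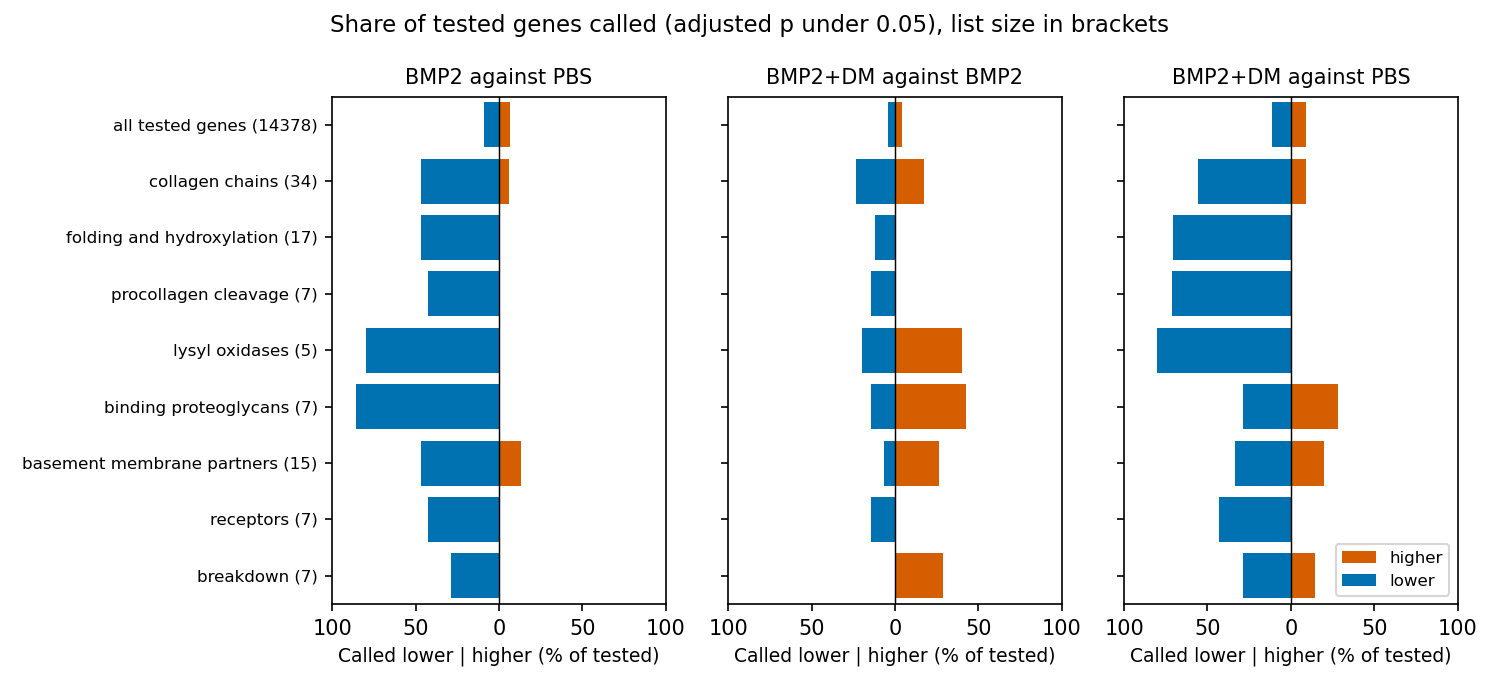
Share of tested genes called lower (left, blue) or higher (right, orange), in percent of the genes tested (horizontal axis), for all tested genes, the collagen chains and 7 lists of genes that process or bind collagen (vertical axis, list size in brackets). In BMP2 against PBS every list reaches further to the left than to the right, and in BMP2+DM against BMP2 the lysyl oxidases, proteoglycans, basement membrane partners and breakdown genes extend further to the right.

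The counts of called markers of other heart cells stand beside 15.8% of all genes called in BMP2 against PBS, 8.73% in BMP2+DM against BMP2 and 20.9% in BMP2+DM against PBS. Smooth muscle and pericyte markers had 2 of 10 higher and 5 lower in BMP2 against PBS, 3 and 2 in BMP2+DM against BMP2, and 2 and 5 in BMP2+DM against PBS. Epicardial and mesothelial markers summed to 248 and 235 CPM in BMP2+DM, 205 and 212 in BMP2, and 272 and 288 in PBS, with 1 higher and 6 lower, 3 and 1, and 1 and 5. Leukocyte markers summed to 62.9 to 66.1 CPM in BMP2+DM, 68.2 to 69.7 in BMP2 and 89.9 to 92.4 in PBS. Of 5 tested, 1, 1 and 2 were called in the same order of comparisons, each lower. Schwann cell markers summed to between 3.62 and 6.63 CPM in any library, and 0 of 2 tested were called in edgeR's quasi-likelihood test in any comparison, with 1 at an unadjusted p under 0.05 (Cdh19 in BMP2+DM against PBS). Cardiomyocyte markers had 0 higher and 9 of 10 lower in BMP2 against PBS, 4 and 0 in BMP2+DM against BMP2, and 0 and 7 in BMP2+DM against PBS. The part of these markers in the collagen results was not tested.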

How the data were processed

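Polyadenylated RNA of primary mouse cardiomyocytes was sequenced in 6 libraries, grouped by the treatment named in the labels. For every library the authors deposited a table of raw read counts by gene symbol. The tools named in the submitters' processing notes are FastQC, Trimmomatic, STAR, HTSeq and DESeq2, and the build is mm10. Which annotation, strand setting and tool versions were used is not given in the sources used here. Summary lines that name no gene held 53.8% to 54.2% of each file and entered neither library sizes nor tests.

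Counts were analysed in R 4.3.3 with edgeR 4.0.16: filterByExpr (minimum count 10, minimum total 15), TMM factors, and the quasi-likelihood F test on all 6 libraries with group means (3 residual degrees of freedom, common biological coefficient of variation 0.0872). P-values were adjusted by Benjamini-Hochberg over 14378 genes, with a threshold of 0.05. Each standard error was taken from the F statistic, as |log2 fold change|/√F. Levels are CPM, as mean ± SD over 2 libraries where a mean is given. Intervals on count ratios are exact (Clopper-Pearson) at 95% and cover counting error only. The libraries of a group differed by more than sampling noise (chi-square per degree of freedom 3.87 in BMP2+DM, 17.6 in BMP2 and 13.7 in PBS over all genes, and 7.27, 14.2 and 40 over the collagen members) and were kept as separate samples. The figures over all genes include the ribosomal-repeat models. Those held 1.31% and 0.0702% of gene counts in PBS 1 and PBS 2, and 2.1% and 0.0928% in BMP2 1 and BMP2 2. The higher figures for PBS and BMP2 therefore do not show a wider spread over genes in general.

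Gene positions and exon lengths come from GENCODE vM21, on the same build, which holds 97.5% of the listed symbols and all 44 collagen symbols. Start regions come from RefSeq (GRCm38.p6), where 33 members had an entry. The members, the gene lists, the collagen classes and the motifs were chosen with earlier results of these data known. All called members are named. Values in every library are given for members called with at least a 2-fold change and for the 2 members of each class with the highest level. Genes of other lists were named from the 4 with the smallest p in a comparison. Alternatives were DESeq2 1.42.0, other size factors, no filter, ribosomal-repeat models left out, scaling without the collagens, the replicate number as a block, PBS 1 and BMP2 1 left out together, and each library left out in turn. Where leaving out a library left 1 in a group, that library was taken to vary like the other groups.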

Additional observations from a re-analysis of the deposited data

How the results depend on the processing

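No call of a collagen gene changed direction under any alternative run. Of 896 values of single genes under an alternative, called or not with all libraries, 821 kept their side of the threshold, 74 lost the call and 1 gained it. These values cover only members called in at least 1 comparison with all libraries, so the 11 members with no call could not gain one. Only values called with all libraries could lose a call, so 896 is not the base for the 74. Some uncalled values changed sign, such as Col2a1 in BMP2+DM against BMP2 (log2 fold changes −0.48 to 0.555 with 1 library left out). With other size factors and with scaling without the collagens, every collagen call was kept. Leaving out PBS 1 and BMP2 1 together gave 10 lower collagen calls in BMP2 against PBS (16 with all libraries), 1 higher call in BMP2+DM against BMP2 (6), a median of −0.46 in BMP2+DM against PBS (−0.52), and 574, 313 and 1388 genes called in BMP2 against PBS, BMP2+DM against BMP2 and BMP2+DM against PBS (2277, 1255 and 3007). That fit has 1 library in PBS and in BMP2, and fewer samples. Leaving out each library in turn gave 1318 to 2470, 670 to 1081 and 1827 to 2928 genes called in that order of comparisons. Lower collagen calls ranged over 11 to 16, 6 to 8 and 15 to 19, higher calls over 2 to 2, 2 to 4 and 2 to 3, and medians over −0.36 to −0.23, −0.15 to −0.10 and −0.56 to −0.45. With the longest transcript in place of merged exons, levels per kb in PBS were 897 CPM for Col1a1 (810), 672 for Col1a2 (289), 329 for Col3a1 (187), 555 for Col4a1 (492) and 266 for Col5a2 (184).

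The labels give groups the same replicate numbers, but deviations of same-numbered libraries were uncorrelated over all tested genes (−0.038 for BMP2+DM and BMP2, −0.023 for BMP2+DM and PBS, 0.025 for BMP2 and PBS). With 2 libraries a group, this cannot show whether same-numbered libraries had an origin in common. PBS 1 and BMP2 1 did both have a raised share of ribosomal-repeat counts (1.31% and 2.1%). The fit with the replicate block gave 2 higher and 16 lower, 6 and 8, and 2 and 19 collagen calls, and changed no call other than that of Col6a6 in BMP2+DM against PBS (log2 fold change 2.18). Depth limits what can be said of the 8 members under the filter and of genes with few counts such as Col2a1 and Col6a6.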
